A study of Mus musculus with 6 samples.

Results

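Hox genes encode transcription factors that record position along the body axis. In the mouse they lie in 4 clusters, HoxA to HoxD, and genes with the same number in different clusters (paralogs) descend from a common ancestor. Low-numbered genes are active from the hindbrain backwards and higher-numbered genes only further towards the tail, and fibroblasts of adult skin keep a Hox pattern of the site they came from. The genes described here are the rows of the count table named for a HoxA, HoxB, HoxC or HoxD gene with a paralog number, 27 of 14484 genes. A further HoxC row was set aside, and 12 of the 39 Hox genes that GENCODE M21 annotates in the clusters, this row included, were not analysed here. The members are 8 HoxA genes, 8 HoxB genes, 6 HoxC genes and 5 HoxD genes, with paralog numbers up to 10. In GRCm38, 3 of the clusters span chr11:96194316-96368256 (HoxB), chr15:102921103-103036852 (HoxC) and chr2:74668310-74765142 (HoxD). Of the genes described most closely, Hoxd8 lies at chr2:74704615-74707933, Hoxb7 at chr11:96286623-96290162, Hoxc8 at chr15:102990607-102994111 and Hoxc10 at chr15:102966796-102971893, all on the plus strand. Hoxa7 lies at chr6:52214491-52221854 and Hoxa9 at chr6:52223100-52231089, both on the minus strand.

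Messenger RNA of mouse skin was sequenced from 3 ATR mD/mD samples (ATR fl/fl; Braf CA/+; Cre +) and 3 ATR WT samples (ATR +/+; Braf CA/+; Cre +), all on a C57BL/6-129J background. In ATR mD/mD, part of the kinase domain of ATR, which senses stalled DNA replication, is deleted in cells where Cre has acted. Which cells of the skin these are was not measured here. All 6 samples carry 1 Braf CA allele and Cre. The source label of the mutant samples names nevi, benign growths of pigment cells. For the promoter that drives Cre, the age of the animals, the body site of the skin and any pooling, the sources at hand name nothing. Replicates are not said to be different mice, so a p-value here measures no more than the spread of the libraries.

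The libraries held between 34723600 and 46847751 gene counts, of which the 27 Hox genes took between 14465 and 19351. Levels are given as CPM, counts scaled to a common library size, with TMM, edgeR's correction for library composition. Atr was at 20.8, 22.2 and 24.8 CPM in ATR mD/mD 1, 2 and 3, against 17.6, 24.5 and 24.2 CPM in ATR WT 1, 2 and 3; a count over the whole gene does not check a deletion of part of it. Markers of skin were present in every library, with summed levels of 10685 to 15547 CPM for 12 basal keratinocyte genes and of 10697 to 20890 CPM for 20 fibroblast genes. The libraries differed in hair content. The mean level of 34 hair genes was 0.29, 2.42 and 7.05 log2 CPM in ATR mD/mD 1, 2 and 3, against 2.20, 6.80 and 6.94 log2 CPM in ATR WT 1, 2 and 3. They differed in muscle too, with 34844, 35279 and 11742 CPM summed over 20 skeletal muscle genes in ATR mD/mD, against 54853, 20403 and 12801 CPM in ATR WT. Y-linked genes summed to 0.14, 193.2 and 201.6 CPM in ATR mD/mD 1, 2 and 3, against 151.9, 0.05 and 0.14 CPM in ATR WT 1, 2 and 3, so both groups held libraries with and without Y-linked reads and were not repeats of a single animal. Melanocyte genes, 18 in number, summed to 545.9, 406.1 and 1481 CPM in ATR mD/mD, against 498.2, 1751 and 1281 CPM in ATR WT, highest in the 3 libraries with most hair RNA. The part of hair, muscle and Y-linked level in the Hox values below was not tested beyond the fits with a covariate that are given. In bulk tissue, fewer cells of a type and less RNA per cell cannot be told apart.

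The clusters also hold microRNAs, and in the mouse miR-196 is known to direct cleavage of Hoxb8 messenger RNA. Mature microRNAs are not measured by these libraries. Their sequences are shown because several of the Hox genes described below hold a match to them. The sequences are from RefSeq (GRCm38.p6, the assembly of mm10), 5′ to 3′, with the seed (bases 2 to 8) in capitals. Both miR-196 forms share 1 seed, and both miR-10 forms share another.
mmu-miR-196a-5p: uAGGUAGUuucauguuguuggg
mmu-miR-196b-5p: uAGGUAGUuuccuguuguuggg
mmu-miR-10a-5p: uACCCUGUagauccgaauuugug
mmu-miR-10b-5p: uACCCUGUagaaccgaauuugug

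The gene of miR-196b lies in HoxA at chr6:52230129-52230150 (minus strand). Those of miR-196a lie in HoxB at chr11:96265187-96265208 and in HoxC at chr15:102973365-102973386 (both plus strand). The gene of miR-10a is in HoxB at chr11:96317186-96317208 and that of miR-10b in HoxD at chr2:74726074-74726096 (both plus strand). The complement of the miR-196 seed, ACTACCT, occurred in an annotated 3′ untranslated region of 8 of the 27 Hox genes, among them Hoxa5, Hoxa7, Hoxa9, Hoxb6, Hoxb7 and Hoxc8, and in 8.77% of 13561 genes of the table. In Hoxa7 a match lies within chr6:52215210-52215231. GENCODE gives these bases to Hoxa7, while RefSeq gives them to Mira, a noncoding gene described below. The miR-10 seed complement, ACAGGGT, was present in 3 Hox genes, Hoxa3 among them, and in 16.7% of genes. Along all 22 bases, the window that came closest to the full complement of miR-196a was in Hoxb8, where 21 bases matched. No other of the 13561 genes had more than 17 matching bases in an ungapped window. The next member was Hoxd8, with 15 bases, a count that 5.55% of genes reach. Both windows are shown 5′ to 3′ on the transcript, with capitals for bases equal to the complement.
Complement of miR-196a-5p: CCCAACAACATGAAACTACCTA
Hoxb8, chr11:96284888-96284909 (plus strand): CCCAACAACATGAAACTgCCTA
Hoxd8, chr2:74707120-74707141 (plus strand): CtCAACAACATaAActTcCtaA

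Within every cluster the level per length was highest among the middle paralogs. Levels between genes are compared as CPM per kb of annotated exon, averaged over 6 libraries. Hoxd8, a gene of the middle of the HoxD cluster, was highest at 19.2 CPM per kb, followed by Hoxa5, a regulator of trunk and lung development, at 15.6 CPM per kb. Hoxc8, which patterns the thoracic skeleton and spinal cord, was at 14.1 CPM per kb, and Hoxb7 was at 12.8 CPM per kb. Hoxa7, Hoxb8, Hoxd9 and Hoxb6 lay between 9.64 and 10.99 CPM per kb. Among the low members, Hoxd3 was at 1.01 and Hoxa3 at 1.16 CPM per kb. The markers Hoxc10, a gene of the lumbar region and hindlimb, and Hoxa9, known for its part in axial and blood development, stood at 4.40 and 3.95 CPM per kb. With the length of the annotated principal transcript in place of all exons, Hoxd8 ranked highest too, at 94.6 CPM per kb. That transcript has only 557 bases against 2744 of all exons, while the counts cover the whole gene. This second ranking is therefore no check of the first. The order of other genes also depended on the length used. Per principal transcript Hoxa9 stood above Hoxc10, at 6.84 and 4.40 CPM per kb, and Hoxa3 was at 2.70 CPM per kb.

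**Figure D1:**
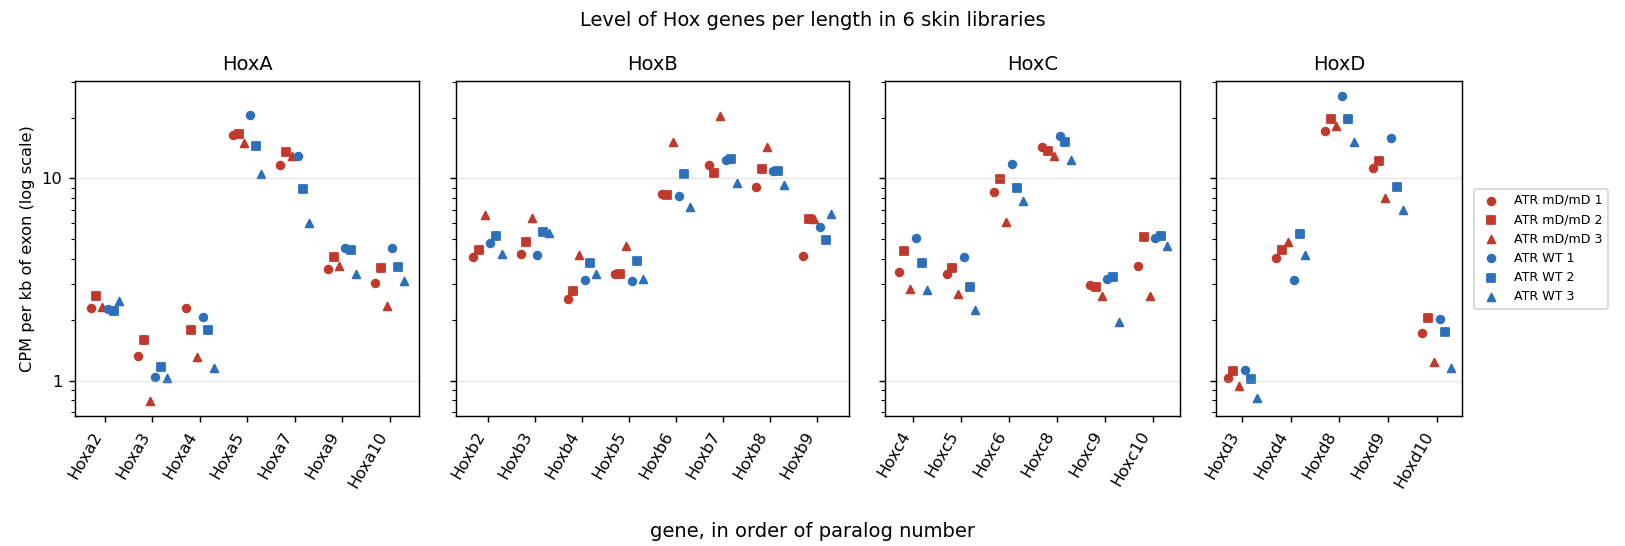
Level of 26 Hox genes in CPM per kb of exon (log scale), 1 point per library, with ATR mD/mD libraries in red and ATR WT libraries in blue. Levels run from 0.79 CPM per kb for Hoxa3 in ATR mD/mD 3 to 25.5 CPM per kb for Hoxd8 in ATR WT 1, and the differences between genes exceed those between libraries.

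Across the 27 genes, the rank correlation of log2 CPM between libraries ran from 0.916 (ATR mD/mD 3 and ATR WT 1) to 0.987 (ATR mD/mD 1 and 2). Over all 14484 genes it ran from 0.923 to 0.987. Single pairs differed more than these ranges do. ATR mD/mD 3 had 0.921 over the Hox genes and 0.968 over all genes with ATR WT 3, and 0.951 and 0.979 with ATR WT 2. Some pairs went the other way, such as ATR WT 1 and ATR WT 3 with 0.943 and 0.928. These are descriptions across genes, which are not independent and share each library's depth and make-up. Hoxd8 had the highest level per length in 5 libraries. The exception was ATR mD/mD 3, where Hoxb7 stood at 20.3 and Hoxd8 at 18.1 CPM per kb.

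Shares of Hox counts depend on how many genes a class holds and on their lengths. Grouped by number, paralogs 4 to 8, 14 of the 27 Hox genes, took most of the Hox counts in every library. Their share was 68.1%, 66.2% and 69.7% in ATR mD/mD 1, 2 and 3, against 67.7%, 66.8% and 64.1% in ATR WT 1, 2 and 3, with 95% Wilson intervals of 67.3% to 68.9% in ATR mD/mD 1 and 63.4% to 64.8% in ATR WT 3. The trio of paralog 8, Hoxb8, Hoxc8 and Hoxd8, held between 26.7% and 28.9% of the Hox counts, the largest share of any number. Paralogs 9 and 10, the most posterior ones measured here, held 19.8%, 21.3% and 16.4% in ATR mD/mD 1, 2 and 3, against 22.0%, 20.1% and 21.3% in ATR WT 1, 2 and 3. The lowest of these was ATR mD/mD 3, whose interval of 15.8% to 16.9% lay below those of the other 5 libraries. Such intervals cover counting error only. They are too narrow even for it where reads are copies made by PCR, which are not independent molecules.

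HoxB had the widest range of the 4 cluster shares. HoxB genes held 28.3%, 28.6% and 41.1% of the Hox counts in ATR mD/mD 1, 2 and 3, against 26.0%, 32.2% and 34.8% in ATR WT 1, 2 and 3. The groups overlapped, and the share in ATR mD/mD 3 had an interval of 40.3% to 41.8%, above every other library. HoxC genes held 17.0% in ATR mD/mD 3 and between 22.2% and 23.5% in the other libraries. The summed level of HoxB divided by that of HoxC was 1.23, 1.29 and 2.41 in ATR mD/mD 1, 2 and 3, against 1.11, 1.42 and 1.55 in ATR WT 1, 2 and 3. This ratio uses 2 sums of 1 library, so the total depth cancels.

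**Figure D2:**
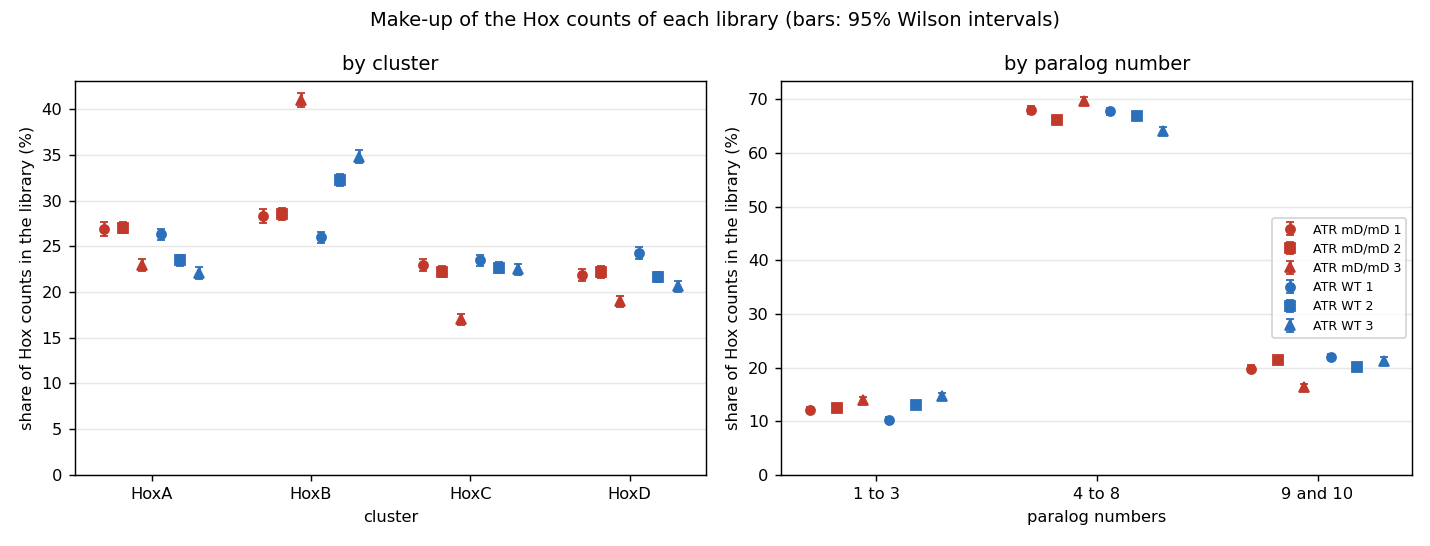
Share of the Hox counts of each library by cluster (left) and by paralog number (right), in percent, with ATR mD/mD in red, ATR WT in blue and 95% Wilson intervals as bars. ATR mD/mD 3 stands apart with 41.1% of counts in HoxB and 17.0% in HoxC.

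The difference of ATR mD/mD 3 was carried by 7 of the 8 HoxB genes, Hoxb2 to Hoxb8, each of which had its highest level in that library. Hoxb7 was at 18.04, 16.4 and 31.3 CPM in ATR mD/mD 1, 2 and 3, against 19.1, 19.2 and 14.7 CPM in ATR WT 1, 2 and 3. Hoxb6 was at 16.5, 16.3 and 29.8 CPM in ATR mD/mD, against 16.1, 20.7 and 14.2 CPM in ATR WT. In both genes 1 library stood above the other 5, and the groups overlapped. Hoxb8 followed with 23.8, 29.5 and 37.7 CPM in ATR mD/mD, against 28.7, 28.7 and 24.5 CPM in ATR WT. Hoxb9, the most posterior HoxB member, did not have its peak there, with 10.7, 16.2 and 16.2 CPM in ATR mD/mD, against 14.9, 12.8 and 17.2 CPM in ATR WT.

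Several HoxA and HoxC genes had their lowest level in the same library. Hoxc10 was at 7.06, 9.85 and 5.04 CPM in ATR mD/mD 1, 2 and 3, against 9.71, 9.87 and 8.88 CPM in ATR WT 1, 2 and 3. Hoxc6 was at 20.7, 23.9 and 14.7 CPM in ATR mD/mD, against 28.3, 21.5 and 18.6 CPM in ATR WT. Hoxa10, a gene of the lumbar region and the reproductive tract, was at 9.92, 11.8 and 7.64 CPM in ATR mD/mD, against 14.8, 11.9 and 10.2 CPM in ATR WT. In all 3 genes ATR mD/mD 3 was the lowest of the 6 libraries, and ATR mD/mD 2 overlapped with the ATR WT range. The same library held the lowest level of Hoxa3, a gene of pharyngeal organs, with 7.95, 9.60 and 4.78 CPM in ATR mD/mD, against 6.31, 7.06 and 6.20 CPM in ATR WT. In all, ATR mD/mD 3 held the highest value of 7 and the lowest value of 5 of the 27 Hox genes, beside 27.5% and 26.3% of all genes. Over the 27 genes, neither extreme fell in this library more often than over all genes.

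ATR WT 1 and ATR WT 3 marked the other extremes. ATR WT 1 held the highest level of 10 Hox genes and ATR WT 3 the lowest level of 14, beside 18.6% and 19.3% of all genes. Hoxd9, a gene of the trunk and limbs, was at 23.9, 26.2 and 17.0 CPM in ATR mD/mD 1, 2 and 3, against 33.9, 19.4 and 14.96 CPM in ATR WT 1, 2 and 3. It had the widest spread of the members, with a highest level 2.26 times the lowest, both in ATR WT. Its neighbour Hoxd8 had the same extremes, with 47.1, 54.1 and 49.6 CPM in ATR mD/mD, against 69.9, 53.7 and 41.7 CPM in ATR WT. Hoxa5 did too, with 30.7, 31.1 and 28.2 CPM in ATR mD/mD, against 38.5, 27.1 and 19.8 CPM in ATR WT. Summed over all 27 genes, the level was 413.6, 458.4 and 459.9 CPM in ATR mD/mD, against 500.3, 445 and 361.5 CPM in ATR WT. Sums over the 20 fibroblast genes did not keep this order, with 10697, 19640 and 19235 CPM in ATR mD/mD, against 20890, 19931 and 17621 CPM in ATR WT. Collagen genes weigh heavily in these sums, and Col1a2 alone was at 1626 CPM in ATR mD/mD 1 and 6486 CPM in ATR WT 1. Vim, of the same list, was highest in ATR mD/mD 1, at 1460 CPM. The part of fibroblast content in the Hox levels was not tested.

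Most Hox genes varied by less than 1 log2 unit over the 6 libraries. The difference between the highest and lowest library had a median of 0.80 on the log2 CPM scale over the 27 genes, beside 0.68 over all genes, and ran from 0.24 for Hoxa2 to 1.18 for Hoxd9. It was at least 1 for 4 members (Hoxa7, Hoxb6, Hoxb7 and Hoxd9), 14.8% of them, beside 28.1% of all genes. It was at least 2 for 0 members, beside 7.17% of all genes. Hoxc8 and Hoxa9 were among the steadier members, with 0.39 and 0.43.

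**Figure D3:**
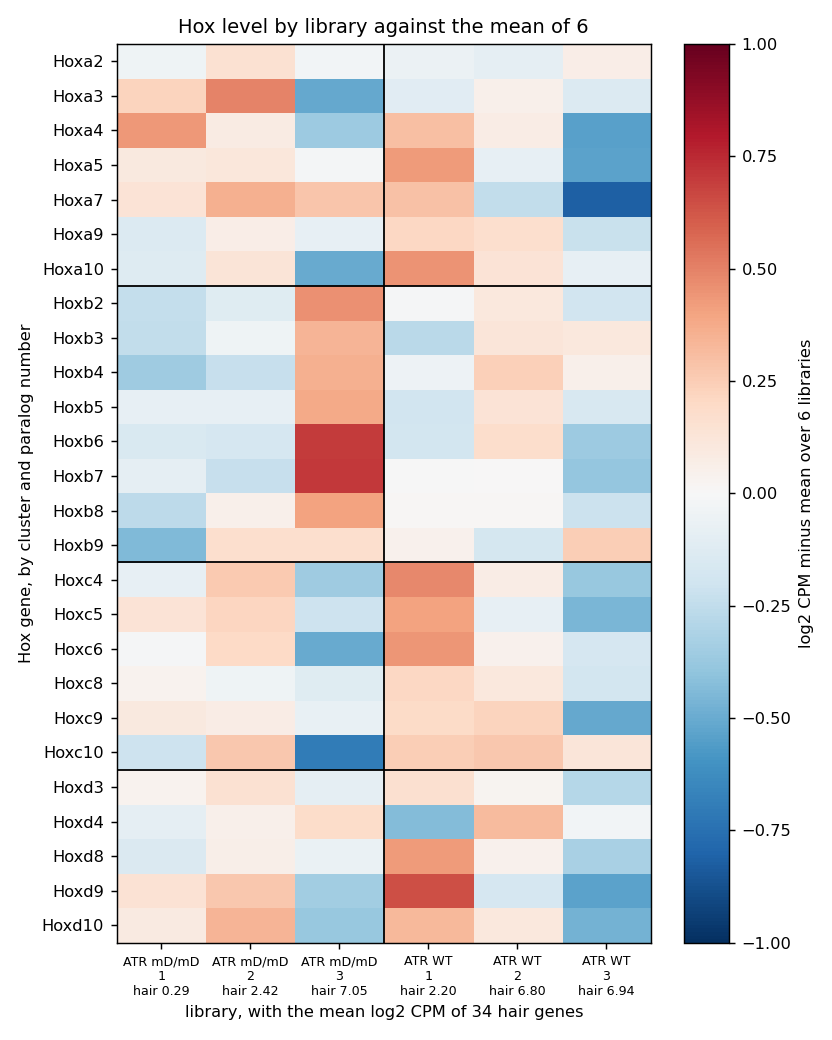
Log2 CPM of 26 Hox genes in each library minus the gene's mean over the 6 libraries, in rows by cluster and paralog number; red is above and blue below the mean, and the hair gene level is printed under each library. The HoxB block is red in ATR mD/mD 3, while Hoxc10, Hoxc6, Hoxa10 and Hoxa3 are blue there.

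The Hox genes were also set beside the hair level. The 3 libraries with hair levels near 7 log2 CPM were ATR mD/mD 3, ATR WT 2 and ATR WT 3. In 2 of the 27 Hox genes, Hoxb3 and Hoxb4, all 3 stood above the other 3 libraries, beside 19.6% of all genes. In 6 Hox genes, Hoxa5 and Hoxd9 among them, all 3 stood below, beside 17.1% of all genes. These 3 libraries are not a group of the study, and no test was made between them and the rest. The skeletal muscle sums given above were lowest in the same 3 libraries. The HoxB share of counts was 41.1% in ATR mD/mD 3, 32.2% in ATR WT 2 and 34.8% in ATR WT 3, above the other 3 libraries. In 1 Hox gene, Hoxa7, the 3 libraries with Y-linked reads all stood above the other 3, beside 2.22% of all genes. In 0 Hox genes did all 3 stand below, beside 4.7% of all genes.

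Between genotypes, 0 of the 27 Hox genes passed an adjusted p under 0.05 over all genes (edgeR quasi-likelihood), beside 0.0483% of all genes. The count was also 0 with DESeq2 and with limma-voom. At an unadjusted p under 0.05 there were 0 Hox genes with each of these tools, beside 1.66% of all genes with edgeR. The groups overlapped in every Hox gene, whereas they did not in 4.84% of all genes (2.26% higher and 2.58% lower in ATR mD/mD). The log2 fold change, ATR mD/mD over ATR WT, is given with its standard error (SE). It lay above 0 in 17 and below 0 in 10 Hox genes, with a median of 0.053, beside 0.0070 over all genes. Leaving out ATR WT 3 gave a median of -0.12. Leaving out ATR mD/mD 2 gave -0.021, and leaving out ATR mD/mD 3 gave -0.019. The adjusted p was 0.9999 for every member (edgeR).

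Of the markers, Hoxc8 was at 40.6, 38.6 and 36.5 CPM in ATR mD/mD 1, 2 and 3, against 45.9, 42.8 and 34.9 CPM in ATR WT 1, 2 and 3. Its mean was 38.6 ± 2.05 CPM in ATR mD/mD and 41.2 ± 5.64 CPM in ATR WT (SD, n = 3 each). The log2 fold change was -0.095 (SE 0.143), with a 95% interval of -0.44 to 0.25, and 0.0028 without ATR WT 1. Hoxa9 was at 19.9, 22.95 and 20.7 CPM in ATR mD/mD, against 25.3, 24.7 and 18.8 CPM in ATR WT. Its log2 fold change was -0.11 (SE 0.161, interval -0.50 to 0.27), and both intervals include differences of either sign. Hoxc10, whose levels are given above, averaged 7.32 ± 2.42 CPM in ATR mD/mD and 9.49 ± 0.528 CPM in ATR WT (SD, n = 3 each). It had the lowest fold change of the members, -0.37 (SE 0.271, interval -1.02 to 0.28), which became -0.16 with ATR mD/mD 3 left out. With ATR mD/mD 2 left out it was -0.65. In this last fit its unadjusted p was 0.0439 (edgeR), and it was the 1 Hox gene under 0.05, beside 1.43% of all genes.

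Hoxa7, a gene of the thoracic region, had the smallest genotype p of the members. It was at 33.5, 39.0 and 36.98 CPM in ATR mD/mD 1, 2 and 3, against 37.3, 25.6 and 17.3 CPM in ATR WT 1, 2 and 3. ATR WT 1 lay within the range of the ATR mD/mD libraries, and ATR WT 2 and ATR WT 3 lay below it. The log2 fold change was 0.45 (SE 0.275, interval -0.21 to 1.11, unadjusted p = 0.149, edgeR quasi-likelihood). It was 0.78 without ATR WT 1 and 0.20 without ATR WT 3. Without ATR WT 1 its unadjusted p was 0.012, with an adjusted p of 0.993 (edgeR), and it was the 1 Hox gene under 0.05, beside 3.65% of all genes. Hoxa10 had -0.33 (SE 0.235, interval -0.89 to 0.24), which became -0.16 once ATR WT 1 was left out and -0.18 with ATR mD/mD 3 left out instead. Hoxc6 had -0.21 (SE 0.241, interval -0.79 to 0.37), which became -0.0071 once ATR WT 1 was left out and -0.032 with ATR mD/mD 3 left out instead.

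The HoxB genes lay above 0 in 6 of 8, and all 6 of these lay below 0 without ATR mD/mD 3. Hoxb7 averaged 21.9 ± 8.18 CPM in ATR mD/mD and 17.6 ± 2.57 CPM in ATR WT (SD, n = 3 each), a log2 fold change of 0.31 (SE 0.279, interval -0.36 to 0.98). It was -0.037 without ATR mD/mD 3. Hoxb6 had 0.29 (SE 0.289) with all libraries and -0.057 without ATR mD/mD 3, and Hoxb8 had 0.15 (SE 0.194) and -0.035. The log2 fold change was 0.19 for Hoxa3 (SE 0.286), -0.13 for Hoxd8 (SE 0.198), 0.074 for Hoxa5 (SE 0.245) and -0.022 for Hoxd9 (SE 0.331). Each of these 4 changed sign when 1 library was left out. It was -0.036 for Hoxa3 without ATR mD/mD 2, 0.090 for Hoxd8 without ATR WT 1, -0.15 for Hoxa5 without ATR WT 3 and 0.40 for Hoxd9 without ATR WT 1. Across the 27 genes, 5 kept their sign with any 1 library left out, namely Hoxa7, Hoxa9, Hoxa10, Hoxc6 and Hoxc10. The half-width of the 95% interval ran from 0.34 for Hoxc8 to 0.81 for Hoxa4 on the log2 scale, among the 26 genes plotted.

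**Figure D4:**
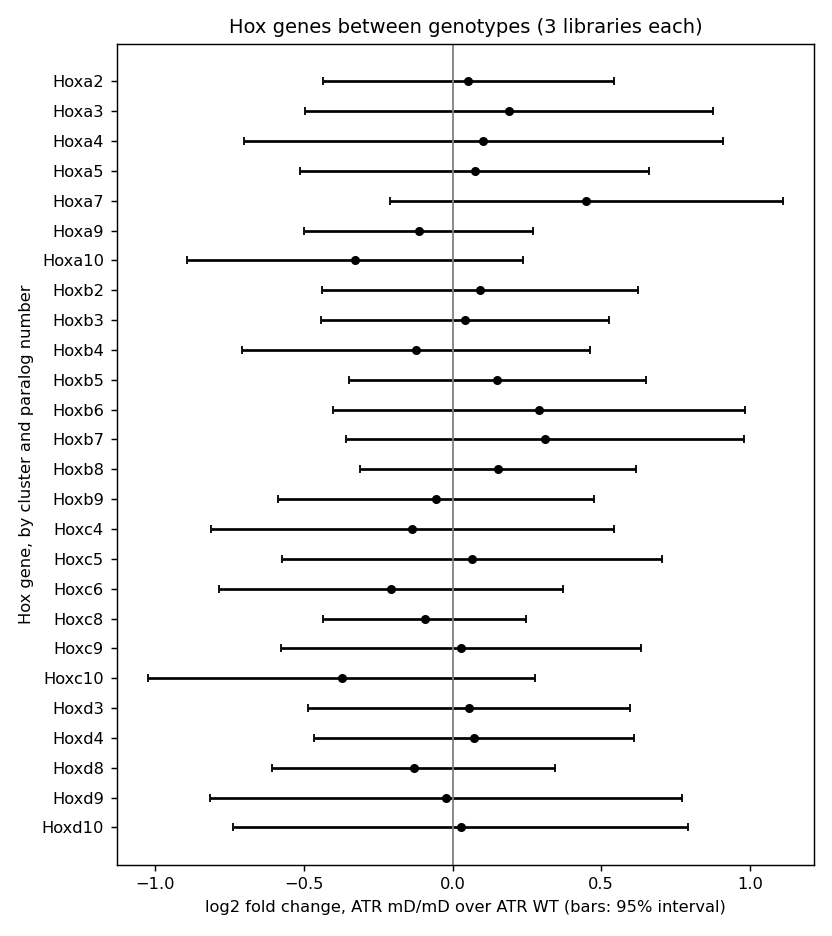
Log2 fold change of 26 Hox genes, ATR mD/mD over ATR WT, with 95% intervals from edgeR (3 libraries each). Every interval crosses 0, from -0.37 for Hoxc10 to 0.45 for Hoxa7.

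With the hair level as a covariate, 0 Hox genes passed over all genes, and 2 had an unadjusted p under 0.05, Hoxa10 and Hoxc6 (edgeR), beside 4.4% of all genes in that fit. Their log2 fold changes were then -0.49 and -0.40, in a fit that called 10 of all genes. With the level of Y-linked genes as a covariate, 0 Hox genes passed either threshold. In that fit 1.6% of all genes had an unadjusted p under 0.05 (edgeR), and 4 of all genes passed the adjusted p.

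Of the genes that act with Hox proteins or on Hox genes, 0 passed the adjusted p in any of the 4 lists below (edgeR quasi-likelihood). The 9 TALE cofactors, homeodomain proteins that bind DNA together with Hox proteins, had a median log2 fold change of -0.088, with 4 above and 5 below 0. Meis3, a TALE protein of the Meis family, was at 9.49, 8.38 and 8.64 CPM in ATR mD/mD 1, 2 and 3, against 10.6, 10.2 and 10.8 CPM in ATR WT 1, 2 and 3 (log2 fold change -0.25, SE 0.157). Meis3 was picked for the smallest p of its list. Its groups did not overlap, as in 4.84% of all genes. The 42 Polycomb and Trithorax regulators, chromatin proteins that keep Hox genes off or on, had a median of 0.011, with 23 above and 19 below 0. Their summed level stayed between 2194 and 2335 CPM in the 6 libraries. The 17 measured retinoic acid genes, a pathway that switches on Hox genes in the embryo, had a median of -0.15, with 5 above and 12 below 0. Rara, a retinoic acid receptor, was at 35.9, 35.4 and 41.6 CPM in ATR mD/mD, against 39.98, 46.1 and 43.8 CPM in ATR WT (log2 fold change -0.20, SE 0.128).

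Of 38 other transcription factors of position, 28 were measured, with 21 below and 7 above 0. Their median was -0.17, beside 0.0070 over all genes. An unadjusted p under 0.05 (edgeR) was reached by 1 of them, beside 1.66% of all genes. Of the 28, 2 (Msx2 and Dlx3) are also in the hair list, and without them 19 lay below and 7 above 0, with a median of -0.16. Hair genes lay below 0 in 33 of 34 (median -0.62) and fibroblast genes in 18 of 20 (median -0.30), and their part in these values was not tested. The factor with the p under 0.05 was En1, a gene of ventral limb skin and dermis, with 4.17, 5.03 and 4.24 CPM in ATR mD/mD, against 7.004, 6.67 and 5.81 CPM in ATR WT. Its groups did not overlap, as in 4.84% of all genes. The log2 fold change of En1 was -0.54 (SE 0.203, unadjusted p = 0.0355, adjusted p = 0.9999, edgeR). Tbx15 and Pitx1 were picked after their values were seen. Tbx15, a gene of dorsal skin pattern, was at 103, 101 and 66.7 CPM in ATR mD/mD, against 128, 81.5 and 72.0 CPM in ATR WT. Pitx1, a gene of hindlimb identity, was at 1.69, 1.83 and 0.60 CPM in ATR mD/mD, against 2.34, 1.15 and 0.45 CPM in ATR WT. It had only 21 to 85 counts per library. Both genes stood lower in the 3 libraries with high hair and low muscle levels than in the other 3, as did 17.1% of all genes. Alx4 and Pax3 of the same list stood higher there, as did 19.6% of all genes. The part of hair, muscle or body site in these levels was not tested.

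Within the cluster spans the table held 5 noncoding genes, 4 placed there by GENCODE M21 and Mira placed in HoxA by RefSeq (GRCm38.p6), at chr6:52214491-52215288. Mira was the most abundant of them, with 53.3, 52.1 and 47.2 CPM in ATR mD/mD 1, 2 and 3, against 71.4, 42.6 and 26.7 CPM in ATR WT 1, 2 and 3. Its highest and lowest levels were both in ATR WT, with a log2 fold change of 0.12 (SE 0.336). Hoxb5os, antisense to Hoxb5, had 25, 38 and 120 counts in ATR mD/mD 1, 2 and 3, against 27, 97 and 101 counts in ATR WT 1, 2 and 3. It was high in the 3 libraries with high hair levels and low in the other 3. Its range of 2.19 on the log2 CPM scale was wider than that of any of the 27 coding members. Hotairm1, a noncoding gene of the HoxA cluster, was at 3.03, 3.40 and 3.18 CPM in ATR mD/mD, against 4.52, 2.16 and 1.86 CPM in ATR WT. Haglr lay between 0.99 and 1.40 CPM and Gm53 between 3.45 and 5.71 CPM over all 6 libraries. None of the 5 passed (adjusted p = 0.9999 for each, edgeR).

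Exons shared with other genes limit some values, because the library kit does not mark strand. All 798 bases of Mira lie within exons that GENCODE gives to Hoxa7, while Hoxa7 as RefSeq places it does not reach them. The count table lists Mira and Hoxa7 apart, so the level per length of Hoxa7, which uses the GENCODE exons, and the split of reads between the pair are uncertain. Of the 27 Hox genes, 14 share exon bases with another gene of GENCODE. The shared part was 62.8% of Hoxd3, 52.9% of Hoxb3 and 52.3% of Hoxd4, and 27.3% or less of the others. Hoxc8, Hoxa5, Hoxb6, Hoxb7, Hoxb8, Hoxd8 and Hoxd9 share none.

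RefSeq promoter windows (GRCm38.p6, from 250 bases before to 50 after the start) matched 14 of the 27 Hox genes, with 15 windows. They are shown for Hoxb8 and Hoxd8, the members of the most abundant paralog number that matched. Capitals mark TATAAA or CCAAT on either strand. No search found TGATTNAT, a sequence bound by Hox and Pbx together, in either window.
Hoxb8, chr11:96281655-96281954 (plus strand): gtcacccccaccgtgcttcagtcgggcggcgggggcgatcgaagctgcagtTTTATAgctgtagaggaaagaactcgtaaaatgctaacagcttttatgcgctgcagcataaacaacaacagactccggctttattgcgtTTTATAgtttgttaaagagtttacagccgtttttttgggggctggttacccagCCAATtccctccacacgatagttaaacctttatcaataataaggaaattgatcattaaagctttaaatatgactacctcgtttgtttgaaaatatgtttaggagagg
Hoxd8, chr2:74704365-74704664 (plus strand): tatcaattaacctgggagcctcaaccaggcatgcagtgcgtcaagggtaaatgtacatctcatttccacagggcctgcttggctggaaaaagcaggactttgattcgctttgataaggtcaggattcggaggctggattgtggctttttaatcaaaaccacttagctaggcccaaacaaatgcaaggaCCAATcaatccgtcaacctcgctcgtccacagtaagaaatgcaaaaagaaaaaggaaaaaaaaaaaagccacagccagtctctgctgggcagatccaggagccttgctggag

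The Hoxb8 window holds TATAAA in 2 places and CCAAT in 1, and the Hoxd8 window holds CCAAT in 1 and no TATAAA. Over the 15 Hox windows, TATAAA was in 3, CCAAT in 9 and TGATTNAT in 1, that of Hoxa2. Of 32851 windows of all genes, 13.6%, 37.4% and 3.22% held these motifs. The number of CpG sites had a median of 13 in the Hox windows, beside 7 in all windows. These matches describe letters in the windows and were not tied to any of the levels above.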

How the data were processed

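Skin RNA of 3 ATR mD/mD and 3 ATR WT samples was measured with TruSeq RNA v2 libraries of mRNA selected with oligo dT, per the labels' protocols. The submitters' processing notes name FastQC, TopHat2 2.0.12, edgeR and mm10; no source at hand names the read counter or annotation. The authors deposited whole-number read counts per gene, not normalized. Beside them stand the log2 fold change, log2 CPM, p-value and adjusted p-value of a comparison by the authors (per the file headers), which supplied no value here. The table has 14486 rows; 2 name no gene, held 4.93% to 5.72% of counts and were left out. Its lowest gene total is 171, and filterByExpr kept all 14484 genes.

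Counts were scaled with TMM and tested with edgeR 4.0.16 (R 4.3.3) by quasi-likelihood, filterByExpr and no covariate, with Benjamini-Hochberg adjustment over 14484 genes. SE was taken from the fold change and its F statistic, and intervals use that SE. Exon lengths and positions come from GENCODE M21 (GRCm38). DESeq2 1.42.0, limma-voom (limma 3.58.1) and the other alternatives are given with the results on processing. The fits were also run on simulated data. There the planted changes were far larger than those of the Hox genes, and libraries of a group did not differ in hair level. That run does not show how small a Hox change could be found here. The members and gene lists were chosen with earlier results of these data known. Described in full are Hoxc8, Hoxc10, Hoxa9, the 8 members highest per length, and the 6 with the smallest p and the 6 with the widest range. A member and a gene of another list stay in all totals but are not reported here.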

Additional observations from a re-analysis of the deposited data

How the results depend on the processing

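The count of Hox genes past the threshold was 0 under every alternative run. The alternatives were RLE scaling, DESeq2, limma-voom, a replicate block, the hair and Y-linked covariates, and each library left out. Fits with no filter and with a 1 CPM filter kept all 14484 genes, so they repeat the main fit and are no check of it. The count over all genes was 7 with edgeR, 39 with DESeq2, 4 with the Y-linked covariate, and 4 to 10 with 1 library left out. The replicate block called 6 genes. Same-numbered libraries of the groups had correlations of 0.63, -0.51 and 0.57 between their deviations from the group means over all genes. Hair level differs within both groups, so these correlations cannot decide whether the replicate numbers pair samples.

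The median Hox fold change of 0.053 turned to -0.038 with the hair covariate and to -0.0050 with the Y-linked covariate, and ran from -0.12 to 0.11 with 1 library left out. No sign of a Hox gene changed under RLE or DESeq2. Hoxd9 (-0.022) turned to 0.075 with limma-voom and to 0.041 with the replicate block. Among the 26 genes described singly, the hair covariate changed 8 signs: Hoxa4 (-0.14), Hoxa5 (-0.038), Hoxb4 (0.017), Hoxb9 (0.022), Hoxc5 (-0.098), Hoxc9 (-0.052), Hoxd3 (-0.023) and Hoxd10 (-0.16). With the Y-linked covariate, 3 did: Hoxa5 (-0.0050), Hoxb2 (-0.0050) and Hoxd10 (-0.029). The cause was not tested.

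With 1 library left out, 21 of these 26 genes changed sign. Their ranges were -0.013 to 0.091 for Hoxa2, -0.036 to 0.43 for Hoxa3, -0.12 to 0.30 for Hoxa4, -0.15 to 0.37 for Hoxa5, -0.15 to 0.22 for Hoxb2, -0.14 to 0.17 for Hoxb3, -0.37 to 0.011 for Hoxb4, -0.019 to 0.26 for Hoxb5, -0.057 to 0.46 for Hoxb6, -0.037 to 0.48 for Hoxb7, -0.035 to 0.30 for Hoxb8, -0.16 to 0.12 for Hoxb9, -0.34 to 0.11 for Hoxc4, -0.13 to 0.33 for Hoxc5, -0.21 to 0.0028 for Hoxc8, -0.19 to 0.15 for Hoxc9, -0.076 to 0.17 for Hoxd3, -0.087 to 0.27 for Hoxd4, -0.31 to 0.090 for Hoxd8, -0.26 to 0.40 for Hoxd9 and -0.18 to 0.22 for Hoxd10. Counts of these 26 genes ran from 73 (Hoxa4) to 2536 (Hoxd8) per library, and 3 libraries a group left 95% intervals of 0.34 to 0.81 log2 units to either side.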
